A study of Mus musculus with 7 samples.

Results

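The genes described here are the matrix metalloproteinases (MMPs), the ADAMTS proteases with their ADAMTS-like relatives, and the tissue inhibitors of metalloproteinases (TIMPs), as measured in whole adrenal glands of mice. Members were chosen by symbol alone, as the probe sets annotated with a single symbol of the form Mmp, Timp, Adamts or Adamtsl followed by a number, and the brighter probe set over the 7 arrays was kept where a gene had 2. This gave 49 members among the 22180 genes tested, made up of 22 Mmp, 18 Adamts, 5 Adamtsl and 4 Timp genes. All 49 were tested, since no filter on low values was applied. The glands came from female mice aged 2 months on a mixed background that was not controlled and was mainly C57BL/6 and SV129. The KO group had 4 mice of the genotype sf1:Cre; Ezh2 Fl/Fl, in which a Cre recombinase driven by the gene of steroidogenic factor 1 deletes the floxed Ezh2 alleles in steroidogenic cells. The WT group had 3 littermates, labelled wild type with no alleles listed. Values are log2 expression values on 1-colour Affymetrix arrays, 1 array a mouse.

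MMPs are zinc-dependent endopeptidases that cleave collagens, elastin, proteoglycans and other proteins at or outside the cell surface. They are made as inactive proenzymes, which proprotein convertases, plasmin or other MMPs activate, and the TIMPs bind and block the active enzymes. ADAMTS proteases are secreted relatives with thrombospondin repeats that act on proteoglycans, procollagens, fibrillin microfibrils and von Willebrand factor, and the ADAMTS-like proteins share these repeats but lack the protease domain. In the adrenal gland the matrix they act on surrounds the capsule, the sinusoidal vessels and the nests of cortical and chromaffin cells.

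In KO glands 4 of the 49 members rose and 2 fell. Mmp2, the secreted gelatinase A, rose by 1.78 log2 units, and Adamts19, Mmp16 and Mmp24 rose by 0.73, 0.45 and 0.39. The macrophage metalloelastase Mmp12 fell by 0.80 log2 units and the procollagen N-proteinase Adamts3 fell by 0.58. Calls rest on limma with an adjusted p under 0.05 over all 22180 genes, where 8.69% of genes were called, 5.14% higher and 3.55% lower. The members' 4 rises and 2 falls were therefore 8.16% and 4.08% of the family. Separate ranges of the KO and the WT arrays were seen for 11 of the 49 members, where the share among all genes was 20.2%. An unadjusted p under 0.05 was reached by 13 members, where the share among all genes was 22.8%. The median change over the members was 0.04, against 0.00036 over all genes, and the median size of a change was 0.117, against 0.0845. The count of higher members was 1 without KO replicate 3, without WT replicate 1 or without WT replicate 2, 2 without WT replicate 3 and 6 without KO replicate 1. The count of lower members was 2 whichever array was left out. Among the called members, Mmp12, Adamts19 and Mmp16 lay below the median level of all genes in both groups, and Adamts3 in KO only. In all, 26 of the 49 members lay below it in both groups.

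**Figure D1:**
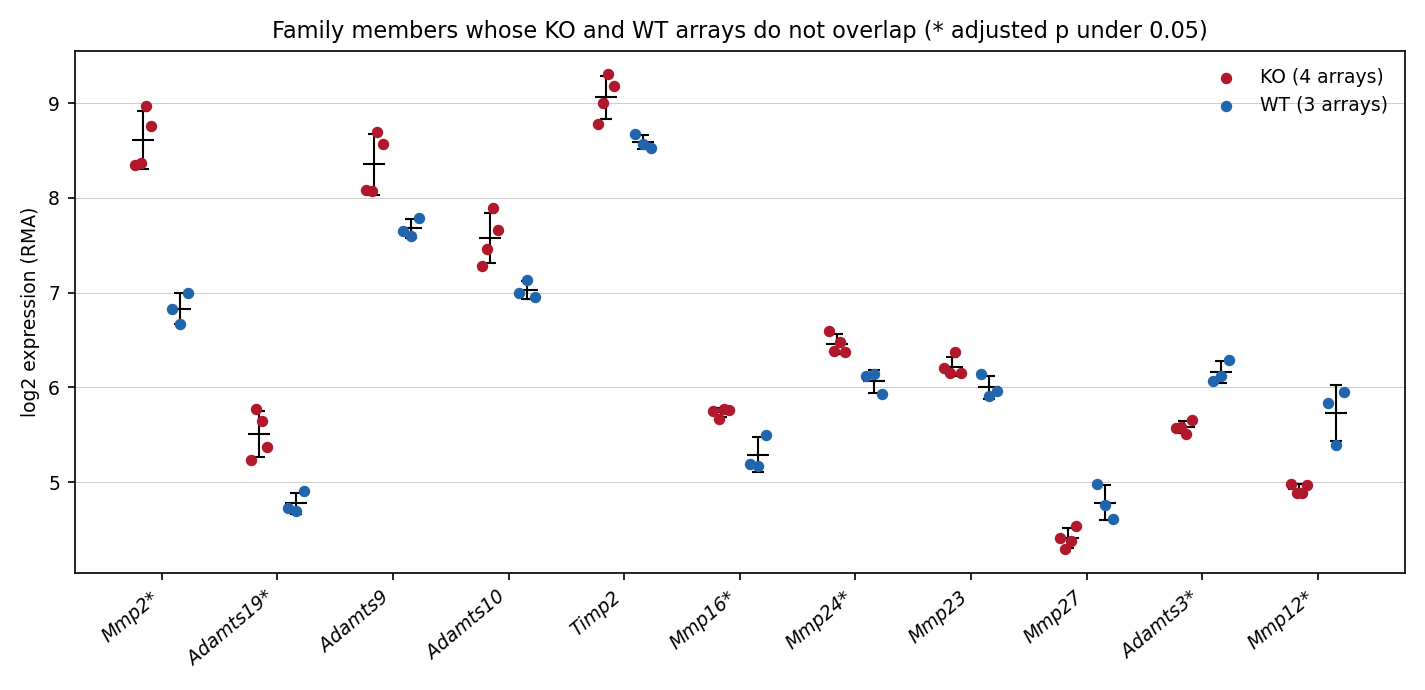
Log2 expression on each array (points), with the mean and SD of each group (black), for the 11 members whose KO arrays (red, n = 4) and WT arrays (blue, n = 3) do not overlap, ordered by change, with called members marked by an asterisk. Mmp2 lies between 8.34 and 8.97 on the KO arrays and between 6.67 and 6.999 on the WT arrays, whereas the groups of Mmp23 lie 6.15 to 6.37 and 5.91 to 6.14 and almost touch.

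The arrays themselves correlated with r of 0.993 to 0.996 across genes within a group and 0.984 to 0.990 between groups, and their medians lay between 5.32 and 5.38. Ezh2 differed by -0.04 log2 units (adjusted p = 0.816), and the exons read by its probe set are unknown here, so the targeted gene does not check the labels. The glands carried the defining markers of the cortex, with a mean over 8 genes of 12.1 in KO and 12.0 in WT. All 12 measured chromaffin markers were higher in KO (list mean 9.90 to 10.2 on KO arrays, against 9.05 to 9.19 on WT arrays), as were 6 of 13 capsule and stroma markers (7.76 to 8.49, against 7.44 to 7.50) and 2 of 7 pericyte and smooth muscle markers (7.84 to 8.34, against 7.44 to 7.62). Of 10 macrophage markers 1 was lower (7.20 to 7.64, against 7.73 to 7.75), and all 4 X-zone markers were lower (6.46 to 7.09, against 9.17 to 9.51). Of 10 adipocyte markers 0 were called (6.80 to 8.65, against 8.19 to 9.39), though all 10 changes were negative (median -0.83). In a whole gland, fewer cells of a type and less RNA per cell cannot be told apart, and this holds for each change below.

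Among the gelatinases, which cleave denatured collagen and basement membrane collagen, Mmp2 was measured at 8.34, 8.36, 8.97 and 8.75 on the 4 KO arrays, against 6.83, 6.67 and 6.999 on the 3 WT arrays. Each KO array lay more than 1 log2 unit above each WT array. The means were 8.61 ± 0.31 in KO and 6.83 ± 0.17 in WT (SD, n = 4 and 3), a change of 1.78 (SE 0.17, 95% interval 1.38 to 2.18, adjusted p = 0.00221). Its call held without any single array, with changes of 1.65 to 1.86 and adjusted p of 0.00515 to 0.0153. Mmp9, gelatinase B, known from neutrophils and macrophages, lay at 4.54, 4.80, 4.80 and 4.63 in KO, against 4.72, 4.66 and 4.46 in WT. Its groups overlapped and the change of 0.08 did not pass the test (95% interval -0.14 to 0.30, adjusted p = 0.674). The 8 neutrophil markers, none of them called, had list means of 4.09 to 4.13 in KO and 4.11 to 4.16 in WT.

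Genes whose proteins activate or restrain MMP2 had smaller changes. Mmp14, the membrane-type 1 MMP that cleaves proMMP2 at the cell surface, stood at 8.92, 8.93, 9.21 and 9.07 in KO, against 8.78, 8.98 and 8.88 in WT. Only KO replicates 3 and 4 exceeded the highest WT array, and the change of 0.15 was not called (95% interval -0.05 to 0.35, adjusted p = 0.334). Timp2, which bridges MMP14 and proMMP2 during activation and inhibits the active enzyme, was at 8.78, 9.0, 9.30 and 9.18 in KO, against 8.67, 8.57 and 8.53 in WT. Its groups did not overlap, but the change of 0.47 (SE 0.12) missed the threshold (adjusted p = 0.0604), and it passed without KO replicate 1 (0.57, adjusted p = 0.0187). Reck, a membrane-anchored inhibitor of MMP2, MMP9 and MMP14, differed by 0.64 (adjusted p = 0.0537) and likewise passed without KO replicate 1 (adjusted p = 0.0158).

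Of the 6 membrane-bound MMPs, 2 rose and 0 fell, with a median change of 0.19. Mmp16, the membrane-type 3 MMP, was at 5.75, 5.67, 5.77 and 5.76 in KO, against 5.20, 5.17 and 5.50 in WT. The KO arrays lay within 0.10 of each other and above all WT arrays, of which WT replicate 3 was the highest. The change was 0.45 (SE 0.08, adjusted p = 0.0198), and it lost the call without KO replicate 1, 3 or 4 or WT replicate 1 or 2 (adjusted p = 0.0536 to 0.0752). Mmp24, the membrane-type 5 MMP, known mainly from the nervous system, was at 6.59, 6.38, 6.48 and 6.37 in KO, against 6.12, 6.15 and 5.93 in WT. All KO arrays lay above the highest WT array, and the change was 0.39 (SE 0.08, adjusted p = 0.0240). That call was lost without KO replicate 3 or any WT replicate (adjusted p = 0.0562 to 0.0778). The chromaffin markers given above moved with this rise, and their part in it was not tested. Mmp23, a type II membrane protein, differed by 0.22 (adjusted p = 0.153), and the remaining membrane MMPs beside Mmp14 were Mmp17 and Mmp25, with changes of -0.01 and -0.12, which are anchored by a lipid tail.

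The start of Mmp24 is shown because it is the only rise with an entry in the RefSeq promoter table used here (GRCm38.p6), which matched 34 of the 49 members with 37 start windows. The window covers the 250 bases before the start, chr2:155775092-155775341 on the plus strand, and holds 33 CpG dinucleotides, against a median of 10 over member windows and 6 over the 32851 windows of the table. Capitals mark the GC box GGGCGG, searched on both strands, which occurs at -213 to -208 and -63 to -58 in the reverse orientation and at -50 to -45 in the forward one.
Mmp24: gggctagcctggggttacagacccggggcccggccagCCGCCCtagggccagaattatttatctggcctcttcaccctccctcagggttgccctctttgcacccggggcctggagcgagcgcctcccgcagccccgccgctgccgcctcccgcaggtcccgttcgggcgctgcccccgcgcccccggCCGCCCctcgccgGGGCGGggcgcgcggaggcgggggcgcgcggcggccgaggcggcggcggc
The GC box was found before the start of 18 matched member genes and in 32.7% of all windows. A match of letters is a description and not a bound site.

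The remaining secreted MMPs had small changes, apart from Mmp12 and Mmp27. The 4 collagenases, Mmp1a, Mmp1b, Mmp8 and Mmp13, had changes of -0.18 to 0.08, and the stromelysins Mmp3, Mmp10 and Mmp11 had changes of -0.01 to 0.05, with 0 calls in either group. The dimmer probe set of Mmp11 gave a change of 0.23, against 0.05 on the brighter one, and was not called either (adjusted p = 0.298). Mmp13, collagenase 3, had the lowest of these changes, at 4.98, 5.04, 5.15 and 5.15 in KO, against 5.38, 5.25 and 5.15 in WT (-0.18, adjusted p = 0.189). Of the 7 other secreted MMPs 0 rose and 1 fell. Mmp7, matrilysin, differed by -0.04 on its brighter and -0.12 on its dimmer probe set, neither of them called. Mmp19, which also acts on basement membrane proteins, differed by -0.12 (adjusted p = 0.244).

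Mmp12, the elastase known as a macrophage product, was at 4.98, 4.89, 4.88 and 4.98 in KO, against 5.84, 5.39 and 5.96 in WT. The KO arrays were tightly grouped and all below the lowest WT array, WT replicate 2. Its mean level lay at percentile 35.1 of all genes in KO and 48.8 in WT. The means were 4.93 ± 0.05 in KO and 5.73 ± 0.30 in WT (SD, n = 4 and 3), a change of -0.80 (SE 0.13, 95% interval -1.10 to -0.50, adjusted p = 0.0110). It kept the call without any single array, with changes of -0.97 to -0.69 and adjusted p of 0.00457 to 0.0458. The macrophage list mean was lower on every KO array than on every WT array, with 9 of its 10 markers negative and a median change of -0.27, and its part in the fall of Mmp12 was not tested.

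Mmp12 belongs to a run of 10 Mmp genes on mouse chromosome 9, in the order Mmp13, Mmp12, Mmp1b, Mmp3, Mmp1a, Mmp10, Mmp8, Mmp27, Mmp20 and Mmp7, with 0 other protein-coding genes between neighbours in the RefSeq annotation. Of these 10, 7 had a negative change, 1 was called lower and 0 higher, and the median was -0.03. The negative changes include those of Mmp10 (-0.002) and Mmp3 (-0.006), which are close to 0. All 10 genes had a WT mean below the median level of all genes (percentiles 2.40 to 48.8), so the signs of most rest on weak values. The 12 Mmp members elsewhere had 4 negative changes, 3 rises and a median of 0.06. Mmp27, of which little is known, was the other member of the run whose groups did not overlap, at 4.41, 4.29, 4.38 and 4.54 in KO, against 4.98, 4.76 and 4.61 in WT. Its change of -0.38 missed the threshold (adjusted p = 0.0583).

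The starts of Mmp12 are shown because the AP-1 motif TGANTCA (N is any base), a site class of Fos and Jun proteins long known from collagenase and stromelysin promoters, was found before the start of 8 member genes, all of them in this run. They were Mmp13, Mmp12, Mmp1b, Mmp3, Mmp1a, Mmp10, Mmp20 and Mmp7, and 6.75% of all windows hold the motif. Mmp12 has a window at each of 2 annotated starts, at chr9:7344147-7344396 and chr9:7347124-7347373 on the plus strand, with 0 and 2 CpG dinucleotides. Capitals mark the AP-1 motif, which lies at -44 to -38 of the second start and is absent from the letters of the first window.
Mmp12 start 1: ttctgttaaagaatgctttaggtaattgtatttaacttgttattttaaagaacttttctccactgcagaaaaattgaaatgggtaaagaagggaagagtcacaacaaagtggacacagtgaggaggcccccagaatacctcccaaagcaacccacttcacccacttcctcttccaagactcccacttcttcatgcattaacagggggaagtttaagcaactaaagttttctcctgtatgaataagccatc
Mmp12 start 2: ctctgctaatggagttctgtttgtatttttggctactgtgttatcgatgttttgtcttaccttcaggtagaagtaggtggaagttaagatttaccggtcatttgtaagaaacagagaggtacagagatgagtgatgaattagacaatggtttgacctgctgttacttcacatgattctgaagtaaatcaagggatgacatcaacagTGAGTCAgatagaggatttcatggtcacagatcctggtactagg
The TATA motif TATAAA was found before 10 member genes and in 12.4% of all windows. The motif of steroidogenic factor 1, CAAGGTCA, was found before 1 member gene, Adamtsl5, and in 1.33% of all windows. All motifs were searched on both strands, and none overlaps another in its letters.

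**Figure D2:**
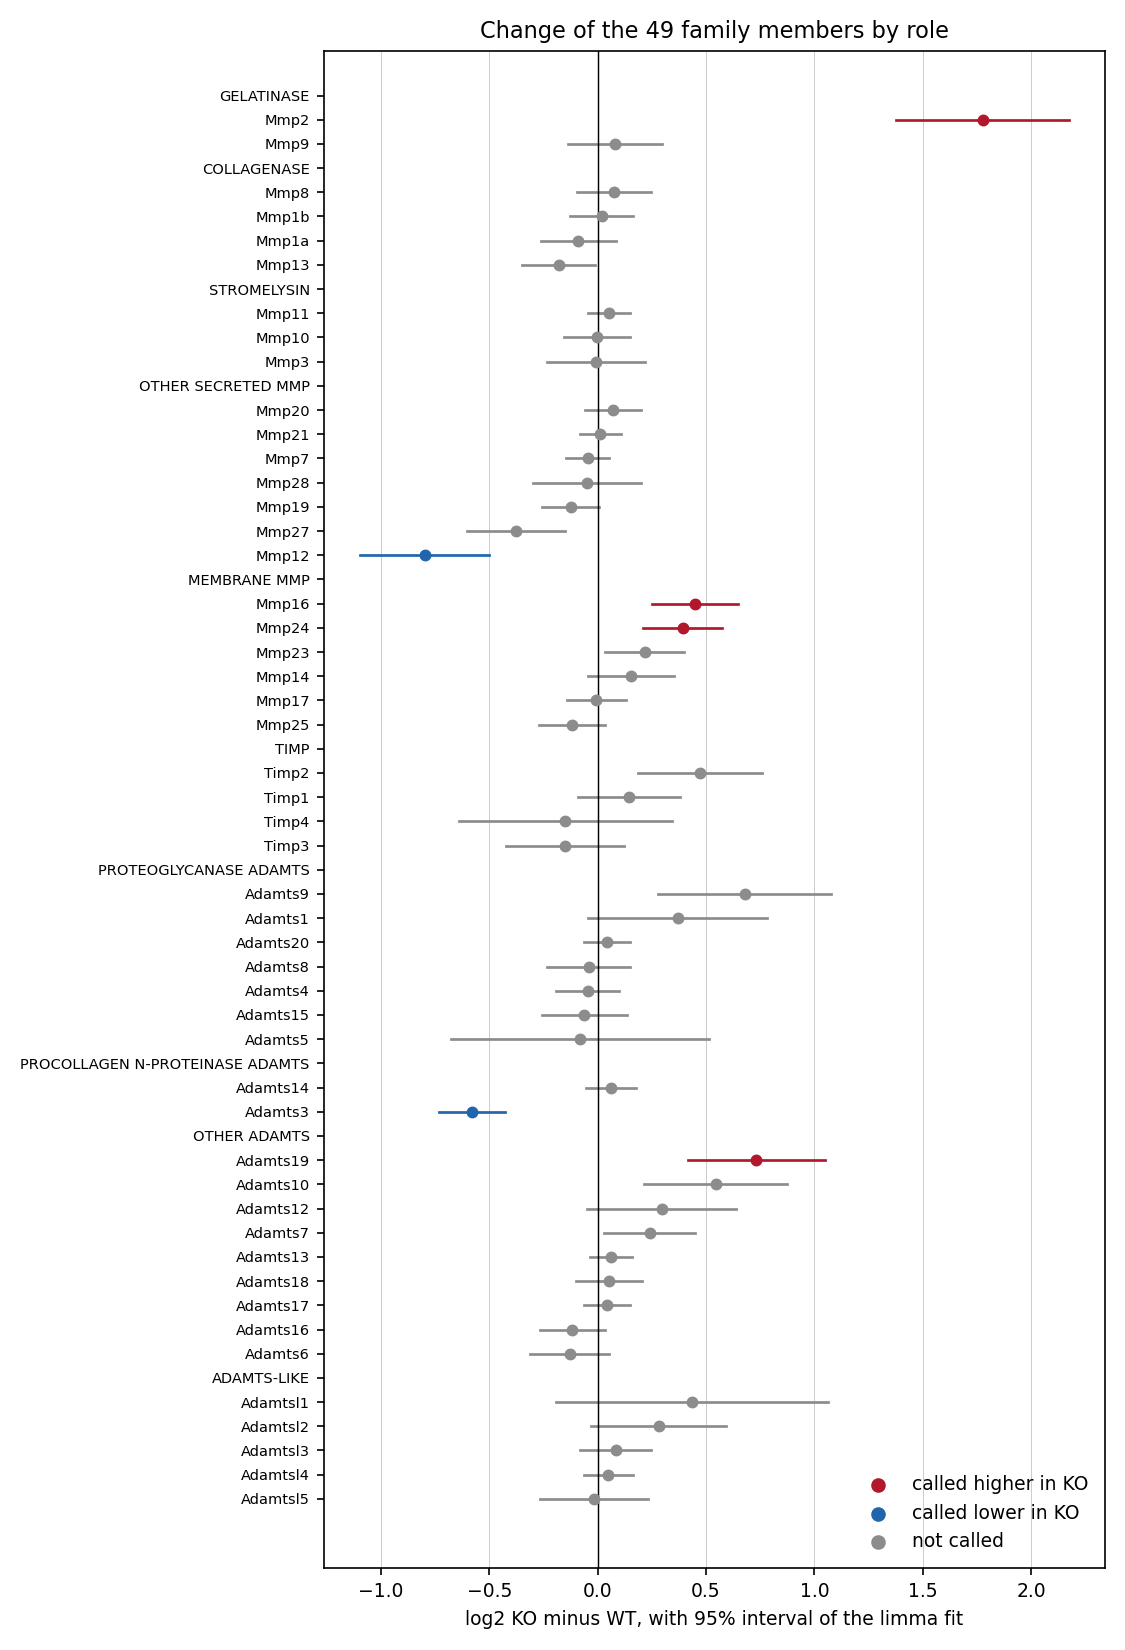
Change of each of the 49 members (log2 KO minus WT, with its 95% interval from limma), grouped by role, with called rises in red, called falls in blue and the others in grey. Mmp2 stands at 1.78, while most of the collagenases, stromelysins and ADAMTS-like genes lie close to 0 with intervals that include it.

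None of the 4 TIMPs was called, and their median change was -0.003. Timp1, an inducible inhibitor of many MMPs, was at 6.37, 6.72, 6.37 and 6.37 in KO, against 6.20, 6.37 and 6.37 in WT. It stood at 6.37 on 5 arrays, so that its change of 0.14 (adjusted p = 0.451) came from KO replicate 2 and WT replicate 1. Timp3, the inhibitor that binds matrix and also blocks several ADAM and ADAMTS proteases, was at 9.88, 10.21, 10.30 and 10.29 in KO, against 10.46, 10.26 and 10.25 in WT. KO replicate 1 was the lowest array, the groups overlapped, and the change was -0.15 (95% interval -0.42 to 0.12, adjusted p = 0.493). Timp4 differed by -0.15 (95% interval -0.64 to 0.34, adjusted p = 0.730) and had an SD of 0.32 in both groups. Timp2, described above, was the 1 TIMP whose groups did not overlap.

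Of the 18 ADAMTS proteases 1 rose and 1 fell. Adamts3 removes the N-propeptide of procollagens and, with the cofactor CCBE1, processes VEGF-C, the growth factor of lymphatic vessels. It was at 5.58, 5.58, 5.51 and 5.66 in KO, against 6.07, 6.12 and 6.29 in WT. The KO arrays were close together and all lay below the lowest WT array. The means were 5.58 ± 0.06 in KO and 6.16 ± 0.11 in WT (SD, n = 4 and 3), a change of -0.58 (SE 0.06, 95% interval -0.73 to -0.43, adjusted p = 0.00312). Its call held without any single array, with changes of -0.63 to -0.52 and adjusted p of 0.00818 to 0.0177.

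Ccbe1 fell as well, to 7.56 ± 0.19 in KO, against 8.42 ± 0.02 in WT (SD, n = 4 and 3, change -0.86, adjusted p = 0.00347), and kept the call without any single array. Vegfc had a change of -0.46 that was not called (adjusted p = 0.108) and passed without WT replicate 2 (-0.62, adjusted p = 0.0472). Of 8 endothelial markers 2 were lower and 0 higher, with list means of 8.39 to 8.74 on KO arrays and 8.71 to 8.81 on WT arrays. The X-zone markers given above were lower too. The part of either cell type in these values was not tested. Adamts14, the other measured procollagen N-proteinase, had a change of 0.06 on the brighter of its 2 probe sets, and 0.06 on the other. Adamts2, the main procollagen N-proteinase of skin, is not among the members, and the authors' deposited table gives it a log2 change of 0.76 with an adjusted p of 0.00723. In the authors' deposited table Adamts3 had a change of -0.70 and an adjusted p of 0.00093.

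The start of Adamts3 is shown as the other fall with a promoter entry. The window is chr5:89883335-89883584 on the minus strand and holds 35 CpG dinucleotides, against 0 and 2 at the starts of Mmp12, so that both falls have starts of unlike base content. Capitals mark a GC box in the reverse orientation at -47 to -42.
Adamts3: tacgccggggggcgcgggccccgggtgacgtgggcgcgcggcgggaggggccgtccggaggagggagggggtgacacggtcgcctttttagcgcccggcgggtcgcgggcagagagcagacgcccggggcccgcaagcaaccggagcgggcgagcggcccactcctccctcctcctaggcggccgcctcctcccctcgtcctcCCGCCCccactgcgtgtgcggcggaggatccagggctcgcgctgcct
The 3 other motifs were not found in this window.

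Adamts19, an ADAMTS protease known from heart valves and the gonad, was at 5.24, 5.77, 5.65 and 5.38 in KO, against 4.73, 4.70 and 4.90 in WT. All KO arrays lay above the highest WT array, with a KO SD of 0.25 and a WT SD of 0.11. The change was 0.73 (SE 0.13, adjusted p = 0.0183, with a 95% interval of 0.42 to 1.05), and it lost the call without KO replicate 3 or any WT replicate (adjusted p = 0.0555 to 0.0801). In the authors' deposited table its change was 0.79 (adjusted p = 0.00622). Of 6 ovary markers 1 was higher and 0 lower, with a highest change of 2.40 and a median of 0.02. Their list mean was 5.71 to 5.80 on KO arrays and 5.21 to 5.26 on WT arrays, although 3 of the 6 changes were positive and 3 negative. The part of ovary-type cells in the rise of Adamts19 was not tested.

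Of the 7 ADAMTS proteases known to cleave versican or aggrecan, 0 were called. Adamts9, which cleaves both, came closest, at 8.08, 8.08, 8.69 and 8.57 in KO, against 7.65, 7.60 and 7.79 in WT. Its groups did not overlap, KO replicates 1 and 2 lay below KO replicates 3 and 4, and the change of 0.68 missed the threshold (SE 0.17, adjusted p = 0.0540). Adamts1 was at 6.50, 6.90, 7.26 and 6.76 in KO, against 6.65, 6.50 and 6.31 in WT, where KO replicate 1 fell among the WT arrays (0.37, adjusted p = 0.266). Adamts5, the main aggrecanase of mouse cartilage, was at 6.11, 6.88, 7.32 and 6.89 in KO, against 6.86, 6.88 and 6.89 in WT. Its 3 WT arrays lay within 0.04 of each other (SD 0.019). KO replicate 1 lay below them, KO replicate 3 above them, and KO replicates 2 and 4 among them (KO SD 0.504). The mean differed by -0.08 (SE 0.25, adjusted p = 0.892). Adamts4, Adamts8, Adamts15 and Adamts20 had changes of -0.06 to 0.04, and the 2 probe sets of Adamts8 differed in sign (-0.04 on the brighter, 0.04 on the dimmer).

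Among the other ADAMTS proteases, Adamts10, which binds fibrillin microfibrils, was at 7.28, 7.46, 7.89 and 7.66 in KO, against 6.998, 7.13 and 6.96 in WT. Its groups did not overlap, and the change of 0.54 missed the threshold (SE 0.14, adjusted p = 0.0597) but passed without KO replicate 1 (0.64, adjusted p = 0.0312). The paralogue Adamts6 differed by -0.13 (adjusted p = 0.376). Adamts7 and Adamts12, which cleave cartilage oligomeric matrix protein, differed by 0.24 (adjusted p = 0.165) and 0.30 (adjusted p = 0.284). Adamts13, Adamts16, Adamts17 and Adamts18 had changes of -0.12 to 0.06, among them Adamts13, the protease of von Willebrand factor, at 0.06.

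The 5 ADAMTS-like genes had 0 calls, a median change of 0.08 and a range of -0.02 to 0.44. Adamtsl1, a secreted matrix protein, had the highest, at 6.09, 6.86, 7.27 and 7.05 in KO, against 6.45, 6.51 and 6.19 in WT. KO replicate 1 was the lowest of all 7 arrays and the other 3 KO arrays lay above all WT arrays, so the change of 0.44 had an adjusted p of 0.387, and without KO replicate 1 it was 0.68 (adjusted p = 0.0378). Adamtsl2, which binds fibrillin and latent TGF-beta binding protein, differed by 0.28 (adjusted p = 0.265).

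The KO arrays were not evenly placed across the family. KO replicate 3 was the highest KO array for 26 of the 49 members (53.1%), against 23.7% of all genes, and KO replicate 1 the lowest for 23 members (46.9%), against 32.2% of all genes. This was examined after the values were seen and is a description. Where KO arrays shared a value, the lower-numbered array was counted, for members and all genes alike. KO replicate 1 thus counts as lowest for Adamts14, Adamts20, Adamtsl3 and Timp1, where another KO array had the same value. Likewise KO replicate 3 counts as highest for Adamts16, Mmp13 and Mmp25, where KO replicate 4 had the same value. The capsule and stroma list mean was 7.76, 8.17, 8.49 and 8.16 on KO replicates 1 to 4, lowest on KO replicate 1 and highest on KO replicate 3, and 7.48, 7.44 and 7.50 on the WT arrays. The endothelial, pericyte and smooth muscle, and zona glomerulosa list means were also lowest on KO replicate 1 (8.39, 7.84 and 8.49). They were highest on KO replicate 3 as well (8.74, 8.34 and 8.82). None of the other marker lists was both lowest on KO replicate 1 and highest on KO replicate 3. The members with this order, ties aside, were Mmp2, Mmp14, Timp2, Timp3, Timp4, Adamts1, Adamts5, Adamts6, Adamts10, Adamts12, Adamtsl1 and Adamtsl5. Of these, Timp3, Timp4, Adamts5, Adamts6 and Adamtsl5 had a negative change and the others a positive one. Col1a1, Col1a2, Col3a1, Dcn and Lum, which are also in the list of substrates below, belong to the capsule and stroma list. The part of any of these cell types in the members' values was not tested.

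**Figure D3:**
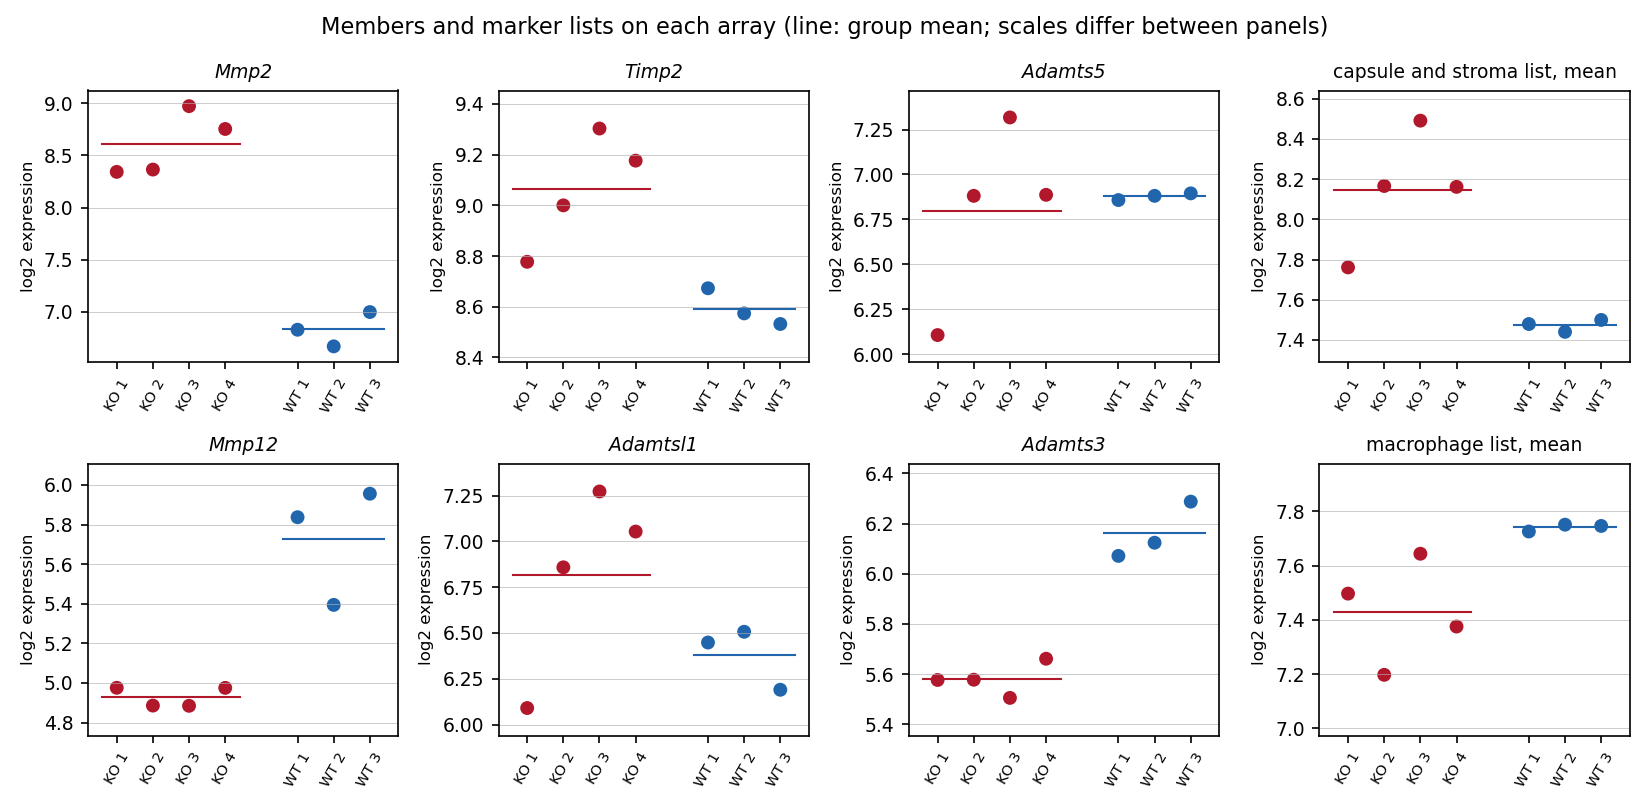
Log2 expression on each of the 4 KO arrays (red) and 3 WT arrays (blue), with group means as lines, for Mmp2, Timp2, Adamts5, Mmp12, Adamtsl1 and Adamts3 and for the mean of the capsule and stroma markers and of the macrophage markers. KO replicate 1 is the lowest and KO replicate 3 the highest KO array for Mmp2, Timp2, Adamts5, Adamtsl1 and the capsule and stroma mean (7.76 and 8.49).

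Genes that work with the family were examined in 5 lists, which were chosen with earlier results of these data known. Over all genes 5.14% were called higher and 3.55% lower. No list was tested as a set, so the counts below are descriptions. In the list of MMP activation, inhibition and clearance, 4 of 18 measured genes rose and 1 fell, with a median change of 0.09. Plau, the urokinase that makes plasmin, rose to 8.32 ± 0.13 in KO, against 7.30 ± 0.13 in WT (SD, n = 4 and 3, change 1.02, adjusted p = 0.00178). Pcsk6, a proprotein convertase, rose by 1.08 (adjusted p = 0.00246), while Furin, the convertase best known for activating membrane-type MMPs, differed by -0.09 (adjusted p = 0.390). A2m, alpha-2-macroglobulin, a trap of active proteases of many classes, fell to 6.13 ± 0.37 in KO, against 7.64 ± 0.27 in WT (SD, n = 4 and 3, change -1.51, adjusted p = 0.00773). Thbs1, thrombospondin 1, which binds proMMP2 and aids its uptake, rose by 0.86 (adjusted p = 0.0185). Its change was 0.77 to 0.99 with 1 array left out, and the call was lost without KO replicate 3 or 4 or WT replicate 2 or 3 (adjusted p = 0.0509 to 0.0875). Itgb3, the beta 3 integrin subunit, rose by 0.41 (adjusted p = 0.00962), and without WT replicate 3 its change of 0.39 just missed the threshold (adjusted p = 0.0505).

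Of 22 measured substrates of MMPs and ADAMTS proteases 5 rose and 0 fell, with a median change of 0.21. Lum, the small proteoglycan lumican, rose by 1.497 (adjusted p = 0.00344), and Fbn2, fibrillin 2 of microfibrils, by 1.02 (adjusted p = 0.00749). Both kept the call without any single array. Vcan and Bcan, the proteoglycans versican and brevican, rose by 0.41 (adjusted p = 0.0267) and 0.46 (adjusted p = 0.0202). Vcan lost the call without KO replicate 4 or any WT replicate (adjusted p = 0.0636 to 0.109), and Bcan without KO replicate 1 or 3 or WT replicate 1 or 2 (adjusted p = 0.0531 to 0.0822). Col1a2, a chain of type I collagen, rose by 0.74 (adjusted p = 0.0377), a call that held only without KO replicate 1 among the fits with 1 array left out (adjusted p = 0.0718 to 0.136 in the others). Col3a1, the chain of type III collagen, differed by 0.46 (adjusted p = 0.238), and by 0.65 without KO replicate 1 (adjusted p = 0.00578). Lum, Col1a2 and Col3a1 are themselves among the capsule and stroma markers, as are Col1a1 and Dcn of this list. The values of these lists are therefore not independent.

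In procollagen processing and cross-linking 1 of 11 measured genes rose and 2 fell, with a median change of -0.34. One of the 2 falls is Ccbe1, which was listed here as the cofactor of ADAMTS3 and is not itself a procollagen or cross-linking enzyme. Pcolce, which enhances C-propeptide removal, fell by 0.42 (adjusted p = 0.0113). Without WT replicate 3 its change of -0.43 just missed the threshold (adjusted p = 0.0505). Loxl1, a cross-linking oxidase of elastic fibres, rose by 0.65 (adjusted p = 0.0251). Its change was 0.56 to 0.76 with 1 array left out, and the call was lost without KO replicate 1 or 4 or WT replicate 1 or 2 (adjusted p = 0.0525 to 0.0979). Of 12 ADAM metalloproteinases, the membrane-anchored relatives, 1 rose and 1 fell, with a median of -0.002. Adam17, the sheddase of TNF, fell by 0.41 (adjusted p = 0.00810), and Adam22, a neuronal member without protease activity, rose by 0.46 (adjusted p = 0.0157). The changes of Adam22 without WT replicate 1 or 3, 0.43 and 0.44, missed the threshold (adjusted p = 0.0580 and 0.0736).

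Of 16 measured regulators known to act on MMP transcription 2 rose and 0 fell, with a median of 0.07. Tgfb3, a TGF-beta ligand, rose by 1.09 (adjusted p = 0.00158). Fos, a subunit of AP-1, rose by 1.22 (adjusted p = 0.0146), and without WT replicate 2 its change of 1.05 missed the threshold (adjusted p = 0.0548).

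**Figure D4:**
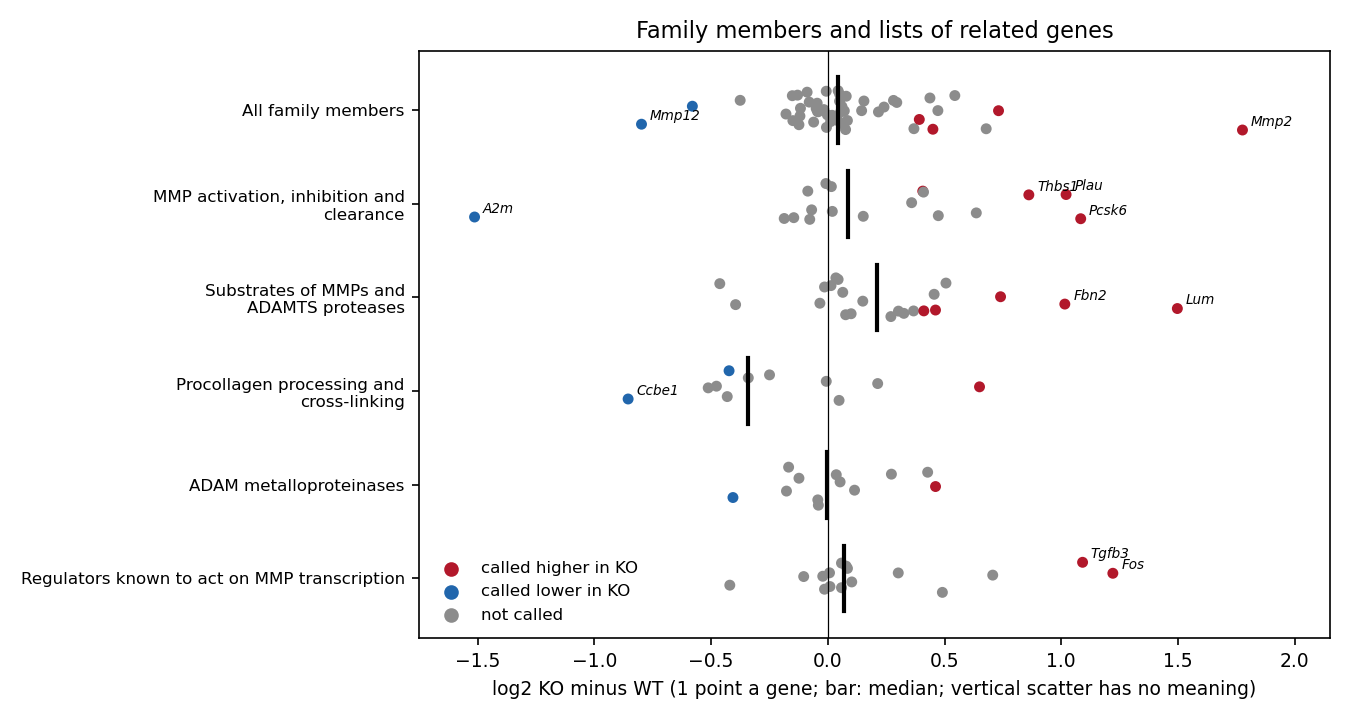
Change (log2 KO minus WT) of each family member and of each gene of the 5 lists of pathway genes (points, coloured by call), with the median of each row as a bar. Substrates lie mostly to the right of 0 (median 0.21). The procollagen processing and cross-linking list, Ccbe1 included, lies mostly to the left (median -0.34), and the family around 0.04 with Mmp2 at 1.78.

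In the authors' deposited table, where 9.72% of 28638 symbols had an adjusted p under 0.05, 48 of the 49 members were found. There 8 were higher and 3 lower at that threshold. These 11 included all 6 members called here and added Adamts9, Adamts10, Timp2 and Adamts7 as higher and Mmp27 as lower. The sign was shared for 42 of the 48, and the log2 changes of the 2 sources differed by a median of 0.027 and at most 0.124. Both sources use the same arrays. The authors' deposited table also holds Mmp15, a membrane-type MMP that is not among the members, with a change of 0.11 (adjusted p = 0.575).

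**Figure D5:**
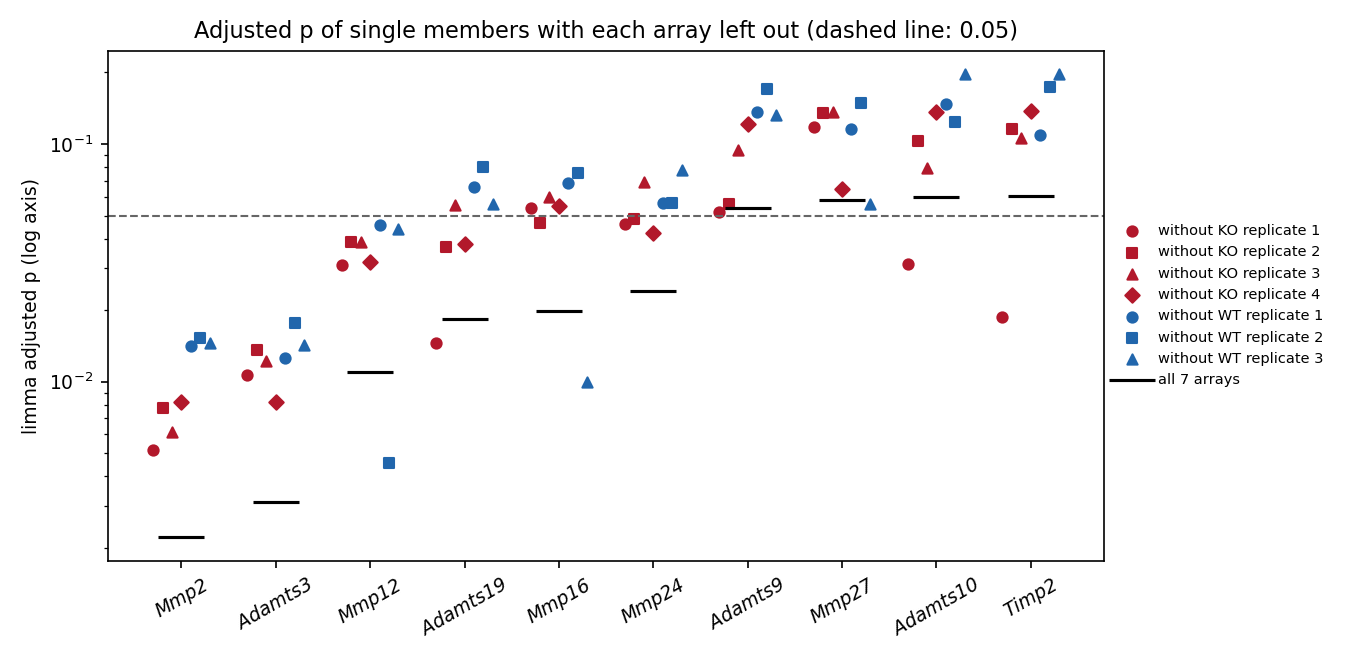
Adjusted p from limma (log axis) of 10 members with all 7 arrays (black bar) and without each KO array (red) or WT array (blue) in turn, with the threshold of 0.05 as a dashed line. Mmp2, Adamts3 and Mmp12 stay under the line in all 7 fits, Adamts19, Mmp16 and Mmp24 cross it, and Timp2 and Adamts10 fall under it without KO replicate 1.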

How the data were processed

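The deposited value table gives log2 expression for 41345 probe sets on 7 arrays, which the authors computed by RMA, per the submitters' processing notes. That method subtracts background, equalises the arrays' quantiles and combines the probes of a set, and differences of weakly expressed genes come out too small. The RMA version and the annotation build were not found in the labels. Detection calls were not used here, so values are not set against background. The authors' deposited comparison table gives a log2 fold change and an adjusted p-value per symbol, and the labels name no test for it.

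Names came from the platform's annotation, in which 23521 have 1 symbol, 1820 several and 16004 are unnamed here. Entrez identifiers of 23328 matched GRCm38.p6 RefSeq genes, with 0 symbols changed. For 1082 genes with several probe sets the highest mean over 7 arrays decided, which also held for Adamts8, Adamts14, Mmp7 and Mmp11. A probe set shared by Mmp24 and another gene was left out. KO and WT were compared by limma 3.58.1 (functions lmFit and eBayes) under R 4.3.3, without covariates, two-sided, with Benjamini-Hochberg adjustment over 22180 genes. The fit left 5 residual degrees of freedom and a median residual SD of 0.0972, and the number of arrays limits the precision. The labels call the arrays biological replicates, so p-values measure the spread between these mice. RMA gave 27 of the 49 members and 12141 of all genes a value shared by 2 or more arrays, and 2 members, Mmp3 and Mmp8, had 1 value on all WT arrays.

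The fit was tested on 10 simulated draws with independent normal noise, in which 200 of 22180 genes were changed. It recovered 92.3% of changes of 1 log2 unit and 61.7% of changes of 0.5, and 4.89% of its calls were false. The real data had 1928 calls and many tied values, so these rates need not hold for them. Replicate numbers were not taken as pairs. Same-numbered arrays had residual correlations of 0.07, -0.08 and -0.11, against -0.09 to 0.21 for the other combinations of a KO and a WT array. With so few arrays this cannot show whether mice were paired, for example by litter. Ezh2, every member and every gene of the lists could be named. Adamts2 and Mmp15 were taken from the authors' deposited table and named after their values were seen. The members and lists were chosen with earlier results of these data known. Alternatives covered a filter on low values, several probe sets, the variance prior, normalization between arrays, array weights, a replicate block, a fold minimum and leaving out each array.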

Additional observations from a re-analysis of the deposited data

Results flagged for a closer look

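A KO array stood apart from the other 3 KO arrays in 10 of the 69 groups examined, judged by the gap to its nearest neighbour over the group's range against Dixon's 95% critical value for 4 arrays. Of the 10, 9 were among the 49 members. Chance flags about 1 in 20 groups, a rate that does not hold for Adamts14, Mmp17 and Timp1, whose other 3 KO arrays share 1 identical value. KO replicate 3 was high for Adamts7 (5.9445, others 5.71 to 5.74), Adamts14 (5.9263, others 5.82) and Mmp1b (2.8245, others 2.73 to 2.74). KO replicate 3 was low for Mmp17 (5.4667, others 5.47), where the whole range was tiny. KO replicate 2 was high for Timp1 (6.7187, others 6.37) and Adamtsl3 (4.672, others 4.42 to 4.44), and low for Mmp16 (5.6707, others 5.75 to 5.77). KO replicate 4 was high for Adamts20 (4.5876, others 4.47 to 4.48) and low for Adamts4 (4.8673, others 5.01 to 5.03). The mean of the zona glomerulosa markers was low on KO replicate 1 (8.4903, others 8.78 to 8.82). Of these members Mmp16 was the only one called.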

How the results depend on the processing

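Mmp2 and Adamts3 kept their direction and call under every alternative run, with adjusted p of 0.00101 to 0.0194 and 0.00175 to 0.0440. Mmp12 did so in 12 of 14, and missed the threshold with the replicate block (adjusted p = 0.0564) and with a minimum fold of 1.2 (adjusted p = 0.0786). The replicate block, from numbers that were not taken as pairs in the main fit, left 523 genes higher and 286 lower, in place of 1140 and 788. It left 1 member higher and 1 lower. Leaving out 1 array left 594 to 945 genes higher and 322 to 654 lower, and 1 to 6 members higher and 2 lower. Array weights gave 7 higher members, the minimum fold of 1.2 gave 1 higher and 1 lower, and leaving out genes below the median level gave 0 lower of 21 members tested, since Mmp12 and Adamts3 were not among the genes tested then. With arrays centred on their medians the median of all genes moved by -0.05, 1329 genes were lower and 1005 higher, which made 43.1% of the calls rises, against 59.1% on the values as deposited, and 4 members were higher and 3 lower. Mmp27 was called with centring (adjusted p = 0.0290) and with further quantile normalization (adjusted p = 0.0279). The sign turned for 16 members under at least 1 alternative, none of them called, with values of at most 0.151 in size. With 1 array left out, Adamts5 ranged from -0.25 to 0.15 (positive without KO replicate 1), Mmp9 from -0.00071 to 0.13 (negative without WT replicate 3), Timp4 from -0.30 to 0.018 (positive without WT replicate 2) and Ezh2 from -0.074 to 0.023 (positive without KO replicate 1). The cause was not tested. The number of arrays and the compression of weak RMA values limit what could be detected.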
